A study of Mus musculus with 26 samples.

Results

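Sohlh1, Egr4, Zbtb16, Dmrt1 and Taf4b are genes for transcription regulators that act in spermatogonia, the mitotic germ cells of the testis, and they were chosen by gene symbol among the probes of a mouse Illumina BeadChip. Of these 5 genes, 3 had a probe under that symbol. They were measured by 4 of the 25697 probes, with 2 probes for Sohlh1 (ILMN_1242183 and ILMN_2850324), 1 for Egr4 (ILMN_1215713) and 1 for Dmrt1 (ILMN_2733843). Zbtb16 and Taf4b are not analysed here.

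The study asked what cells taken from the germline keep of their origin once they have become pluripotent. Total RNA of 13 mouse cell lines was hybridised, each line on 2 technical arrays (a and b), and all lines share the OG2 strain background, which carries a green fluorescent reporter of Oct4 (Pou5f1) activity. GSC stands for the 2 lines of germline stem cells, the source of the germline material. From GSCs came 4 lines of reprogrammed, induced pluripotent cells, called iPSC, and gPSC names 4 pluripotent lines of germline origin. Single lines stood for embryonic stem cells (ESC), for fibroblasts (Fib) and for induced pluripotent cells of fibroblast origin (Fib-iPSC). The labels name no reprogramming factors, culture medium or feeder layer, the deposited design text counts 12 lines without the fibroblasts, and groups of 1 line say nothing about how such lines vary.

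Spermatogonia hold the stem cells of sperm production, which either renew themselves or enter a differentiation programme that ends in meiosis. Zbtb16 (PLZF) is a zinc finger repressor needed for stem cell maintenance, and Taf4b is a germ cell subunit of the general transcription factor TFIID. Sohlh1 is a basic helix-loop-helix factor of differentiating spermatogonia, Dmrt1 is a DM-domain factor that controls the entry of spermatogonia into meiosis, and Egr4 is a zinc finger factor of the early growth response family whose loss disturbs male germ cell maturation.

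Sohlh1 lies on chromosome 2 (bases 25842995 to 25847248), Egr4 on chromosome 6 (85511121 to 85513589) and Dmrt1 on chromosome 19 (25505618 to 25604328), as RefSeq places them on GRCm38.p6. The 250 bases before the start of the 2 members with the largest falls are shown because their levels moved most between the lines. Both are read from the minus strand, Sohlh1 at chr2:25847249-25847498 and Egr4 at chr6:85513590-85513839. Capitals mark the letters CACGTG in the Sohlh1 promoter and TGACGT, read here on the opposite strand as ACGTCA, in the Egr4 promoter.
Sohlh1: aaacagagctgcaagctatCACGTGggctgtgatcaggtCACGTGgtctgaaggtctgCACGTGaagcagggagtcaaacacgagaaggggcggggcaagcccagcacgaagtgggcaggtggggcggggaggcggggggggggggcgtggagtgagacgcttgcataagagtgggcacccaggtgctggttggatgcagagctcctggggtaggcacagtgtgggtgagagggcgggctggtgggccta
Egr4: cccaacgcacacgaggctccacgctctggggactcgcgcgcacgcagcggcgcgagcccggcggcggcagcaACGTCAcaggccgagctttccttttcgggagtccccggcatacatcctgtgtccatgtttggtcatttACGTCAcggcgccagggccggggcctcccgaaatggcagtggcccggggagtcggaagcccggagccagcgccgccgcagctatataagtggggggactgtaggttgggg
CACGTG, the E-box that many basic helix-loop-helix factors recognise, occurred 3 times upstream of Sohlh1, beginning 231, 211 and 192 bases before the start. It reads the same on both strands and occurred at least once in 6.02% of 32851 RefSeq promoter windows of the same 250 bases, and 3 or more times in 0.0609% of them. TGACGT, the core of the cyclic AMP response element, occurred 2 times upstream of Egr4, at 178 and 110 bases before the start. It was searched on both strands and was found in 6.47% of the windows, 2 or more times in 1.80%. The Egr4 window also held TATATAA, a core promoter motif, 29 bases before the start (3.04% of windows on both strands), and the Sohlh1 window held GGGCGG 3 times (8.47% of windows held it 3 or more times). No match overlapped another. The motifs were picked after the sequences had been read, a match is only a run of letters, and no binding was measured. The windows were 64.4% (Sohlh1) and 68.0% (Egr4) G and C, against a median of 52.4%.

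All levels below are log2 normalized intensities averaged over the 2 arrays of a line, and the array's detection floor, the lowest level of a probe told from background, lay between 4.56 and 4.81. A probe was detected on an array where the deposited detection p-value was under 0.05. Median raw intensity per array was 89.2 to 143, and 12097 to 13808 probes were detected per array. Arrays of the same line correlated at 0.994 to 0.997 over the probes that represent the 10660 tested genes. Precision is limited by how few lines and arrays there are. The labelled cell types mostly carried their markers. The 8 germ cell markers averaged 8.10 and 8.13 in the GSC lines with 7 detected, against 4.59 in fibroblasts with 2 detected. All 9 pluripotency markers were detected in ESC and the 4 iPSC lines, 8 or 9 in the gPSC lines and 8 in Fib-iPSC. In each GSC line 5 of these 9 were detected, at means of 6.22 and 5.94, and in fibroblasts 1. Among 15 markers of testis somatic cells, 4 were detected in each GSC line and 3 or 4 in every other line, with mean levels of 4.83 and 4.85 in GSC against 4.64 to 5.22 elsewhere. Wt1 stood at 9.20 and 8.78 in the GSC lines. It averaged 4.92 in iPSC, 5.52 in gPSC, 4.87 in ESC, 5.20 in Fib and 6.02 in Fib-iPSC. Sox9 and Gata4, which mark Sertoli cells, were near the floor in the GSC lines, at 4.65 and 4.81 and at 4.72 and 4.44. Sox9 was detected on 3 of 4 GSC arrays and Cldn11 on all 4, and neither was detected in iPSC, gPSC, ESC or Fib-iPSC. Dhh and Inha were undetected in the GSC lines. All are from the same list of testis somatic markers, and whether such cells were present was not tested. The 13 fibroblast and feeder markers averaged 5.995 and 6.29 in the GSC lines with 10 detected, against 8.99 in fibroblasts with all 13 detected. Since RNA was pooled from many cells, fewer cells with a transcript and less transcript per cell cannot be told apart.

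Egr4 was bright in the germline stem cells and low in every other line. It stood at 12.81 in GSC 1 and 12.88 in GSC 2, from raw intensities of 4257 to 5927 on the 4 arrays. In the iPSC lines 1 to 4 it stood at 5.03, 5.83, 4.20 and 5.20, and in the gPSC lines 1 to 4 at 5.28, 6.62, 4.25 and 6.47. No pluripotent line came near the GSC lines. The ESC line, at 7.47, was the highest of the lines other than GSC, followed by gPSC 2, Fib-iPSC (6.56) and gPSC 4. Fibroblasts were at 5.14. The order within the pluripotent lines runs through all derivation routes, and the largest difference between the 2 arrays of a line was 0.44, so that gPSC 2, Fib-iPSC and gPSC 4 cannot be ordered and iPSC 1, gPSC 1 and iPSC 4 cannot either. Egr4 was undetected on both arrays of iPSC 3 and of gPSC 3 and detected on both arrays of the other 11 lines.

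Sohlh1 had the same contrast and a flatter floor. Probe ILMN_2850324, which represents the gene in the tests because it had the higher mean, stood at 11.13 and 10.82 in the GSC lines. The iPSC lines 1 to 4 gave 4.79, 4.77, 5.97 and 4.77, and the gPSC lines 1 to 4 gave 4.55, 5.14, 4.89 and 4.81. ESC stood at 4.53, Fib at 4.33 and Fib-iPSC at 4.70. Most of these values lie within 0.45, the largest difference between arrays of a line, of one another, and only iPSC 3 lies clearly above them. Probe ILMN_1242183 gave the same picture, with 11.02 and 10.71 in GSC, 4.64, 4.57, 5.82 and 4.64 in iPSC, and 4.71 to 4.998 in gPSC. This probe was at 4.79 in ESC, 4.84 in Fib and 4.71 in Fib-iPSC. The probes differed in detection outside the GSC lines: ILMN_2850324 was detected on 6 of 8 gPSC arrays and 0 of 2 fibroblast arrays, and ILMN_1242183 on 8 of 8 and 2 of 2.

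Dmrt1 was detected on all 4 GSC arrays and on 0 of the other 22. It stood at 6.87 and 6.98 in the GSC lines, from raw intensities of 178 to 208. The iPSC lines lay between 4.35 and 4.54 and the gPSC lines between 4.33 and 4.39. ESC was at 4.52, Fib at 4.28 and Fib-iPSC at 4.37. All these lie at or under the detection floor, so their order carries no information. Dmrt1 entered the tests only through the GSC lines.

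**Figure D1:**
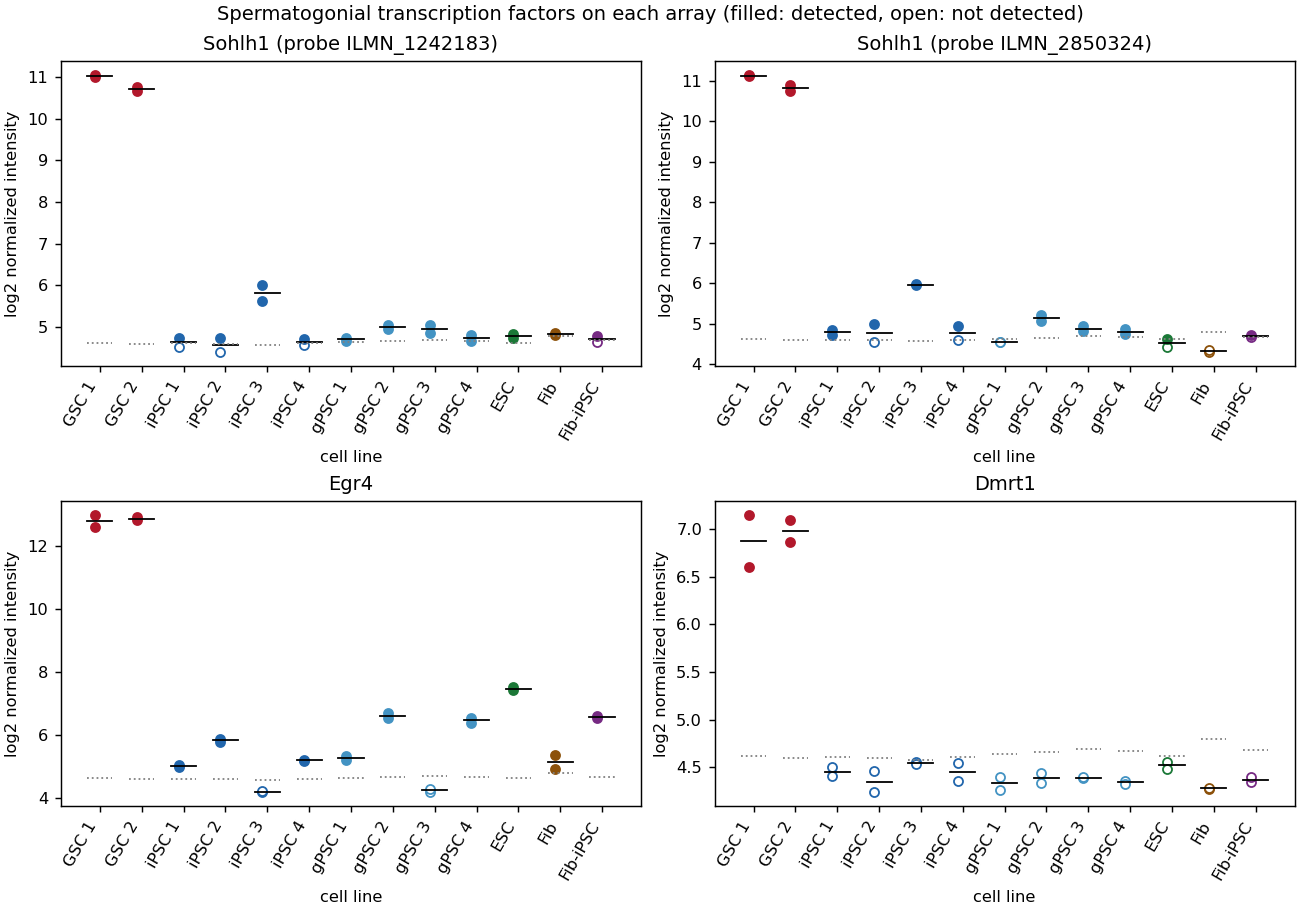
Log2 normalized intensity (y axis) of the 4 probes on each of the 26 arrays, by cell line (x axis). Points are arrays a and b, filled where detected, black bars are line means and dotted bars the detection floor of the line's arrays, and each panel has its own y range. The GSC lines stand above all others in every panel, Sohlh1 is raised in iPSC 3, and Egr4 is at the floor in iPSC 3 and gPSC 3.

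The comparison of iPSC with GSC lines asks what became of the factors when germline cells were reprogrammed. Egr4 fell, with an iPSC minus GSC difference of -7.79 ± 0.65 (SE) on the log2 scale, with iPSC lines at 5.06 ± 0.67 (SD, n = 4) against 12.85 ± 0.05 (SD, n = 2), a 221-fold difference (limma, adjusted p = 1.94e-05). Sohlh1 was 59.7-fold lower, a difference of -5.90 ± 0.33 (adjusted p = 1.89e-06). Each of these 2 probes was detected on 6 of 8 iPSC arrays, with several values near the floor, so the folds are not exact. Over other processing settings the difference ranged from -9.23 to -6.02 for Egr4 and from -7.12 to -4.17 for Sohlh1. Dmrt1 was undetected in iPSC, so its fall has only a bound of at least 5.02-fold (fitted difference -2.48 ± 0.10, adjusted p = 3.09e-07). The bound sets the GSC mean against each iPSC array's floor, or the probe's own level where that was higher. Sohlh1 and Egr4 passed the call rule, an adjusted p under 0.05 with at least a 2-fold difference, and so did Dmrt1, which had to differ because only the GSC lines brought it past the detection filter. The rule was one that 22.8% of the 10660 tested genes passed in either direction and 11.7% passed as lower in iPSC. Ranked by fitted difference, Egr4 was the 1st and Sohlh1 the 3rd largest fall of the 10660 genes. The members were chosen with earlier results of these data known, so the ranks only describe them.

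In the gPSC lines, set against the same GSC lines, the values were close to those in iPSC. Egr4 was lower at -7.20 ± 0.65, with gPSC lines at 5.65 ± 1.11 (SD, n = 4), a 147-fold difference (adjusted p = 3.25e-05). Sohlh1 was 69.9-fold lower (-6.13 ± 0.33, adjusted p = 1.68e-06), and Dmrt1 by at least 4.79-fold (fitted difference -2.56 ± 0.10, adjusted p = 2.81e-07). Over other processing settings the gPSC difference ranged from -8.29 to -5.76 for Egr4 and from -7.50 to -4.25 for Sohlh1. All 3 passed the call rule, Dmrt1 again through the GSC lines alone, as did 21.6% of the tested genes in either direction and 11.5% as lower in gPSC. Both comparisons share their 2 GSC lines, so they are not independent. Tested as its own row, the second Sohlh1 probe gave -5.95 ± 0.32 in iPSC and -6.02 ± 0.32 in gPSC (adjusted p = 1.57e-06 and 1.55e-06 over 14948 probes).

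Sohlh1 and Egr4 also set the GSC lines apart from ESC and from fibroblasts. Each of these groups has 1 line, which is assumed in the fit to vary as the other groups do. Dmrt1 was called too, but it was undetected in ESC and fibroblasts and passed the detection filter through the GSC lines alone. Against ESC, where the Sohlh1 probe was detected on 1 of 2 arrays, Sohlh1 was higher in GSC by 6.45 ± 0.47 (adjusted p = 2.99e-05) and Egr4 by 5.37 ± 0.91, or 41.5-fold (adjusted p = 0.00241), and Dmrt1 was at least 4.95-fold higher (adjusted p = 8.35e-06). Of all tested genes, 20.5% were called between GSC and ESC, 10.5% as higher in GSC. Egr4 missed the threshold in this comparison with the authors' processed values (5.53, adjusted p = 0.0638). Against fibroblasts, Sohlh1 was higher in GSC by 6.03 ± 0.45 on probe ILMN_1242183 (adjusted p = 1.68e-05 over all probes), and at least 72.5-fold higher on ILMN_2850324, which was undetected in fibroblasts (adjusted p = 1.33e-05). Egr4 was higher by 7.71 ± 0.91 (adjusted p = 0.000187) and Dmrt1 at least 4.38-fold (adjusted p = 2.47e-06), where 31.7% of genes were called and 17.1% were higher in GSC.

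Between the derivation routes, no difference in the factors was called, and 0% of all tested genes were called (0 of 10660 by limma, with 830 at an unadjusted p under 0.05). iPSC minus gPSC was 0.23 for Sohlh1 (95% interval -0.39 to 0.84, adjusted p = 0.751), -0.59 for Egr4 (-1.78 to 0.60, adjusted p = 0.682) and 0.09 for Dmrt1 (-0.09 to 0.26, adjusted p = 0.686). The Sohlh1 value rested on iPSC 3 and was -0.071 without it. The Egr4 interval holds differences of more than 2-fold, and that of Dmrt1 compares undetected signals.

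Against ESC, Sohlh1 was 0.55 higher in iPSC (95% interval -0.42 to 1.52, adjusted p = 0.999) and 0.32 higher in gPSC (-0.65 to 1.29, adjusted p = 0.979), neither called. The iPSC value was 0.25 without iPSC 3 and 0.12 on the other probe, where the gPSC value was 0.06. Egr4 pointed the other way. It was lower than in ESC, with differences of -2.41 ± 0.83 in iPSC (-4.29 to -0.54, adjusted p = 0.717) and -1.82 ± 0.83 in gPSC (-3.70 to 0.05, adjusted p = 0.866), and these differences were not called in the fit of line means. Only 0.225% and 0.244% of all genes were called in these comparisons. Treating the 26 arrays as rows with the line as a random block gave adjusted p = 0.0375 for Egr4 in iPSC against ESC, the same difference with a smaller p. Such a fit counts technical arrays of the same lines, at 1 correlation shared by all genes (0.78), and adds no line to ESC. With the mean of iPSC and gPSC set against the mean of ESC and Fib-iPSC, the pluripotent lines with no GSC source, the difference was -1.66 for Egr4 (-2.99 to -0.34), 0.35 for Sohlh1 (-0.34 to 1.04) and -0.04 for Dmrt1 (-0.24 to 0.16). All 3 had an adjusted p of 0.999, and 0.0375% of genes were called. On the other Sohlh1 probe this difference was 0.13. Between the fibroblasts and the Fib-iPSC line, 1 line each and without a test, Egr4 stood at 5.14 and 6.56, and Dmrt1 was undetected in both. Sohlh1 stood at 4.33 and 4.70 on ILMN_2850324, which was undetected in fibroblasts and detected on 1 of 2 Fib-iPSC arrays. On ILMN_1242183 Sohlh1 stood at 4.84 and 4.71, so the direction differed between the probes.

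Whether Egr4 and Sohlh1 varied together among the pluripotent lines cannot be told, since most Sohlh1 values there lay near the floor. iPSC 3 had the highest Sohlh1 on both probes and undetected Egr4, and gPSC 3, also without detected Egr4, had Sohlh1 at 4.89, inside the range of the other gPSC lines. Over all 13 lines, Pearson's r between the members was 0.908 for Sohlh1 and Egr4, 0.989 for Sohlh1 and Dmrt1 and 0.939 for Egr4 and Dmrt1, values that the gap between the GSC lines and all others sets. Over the 8 iPSC and gPSC lines alone the r of Sohlh1 and Egr4 was -0.358, with iPSC 3 at the end of the Sohlh1 range.

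**Figure D2:**
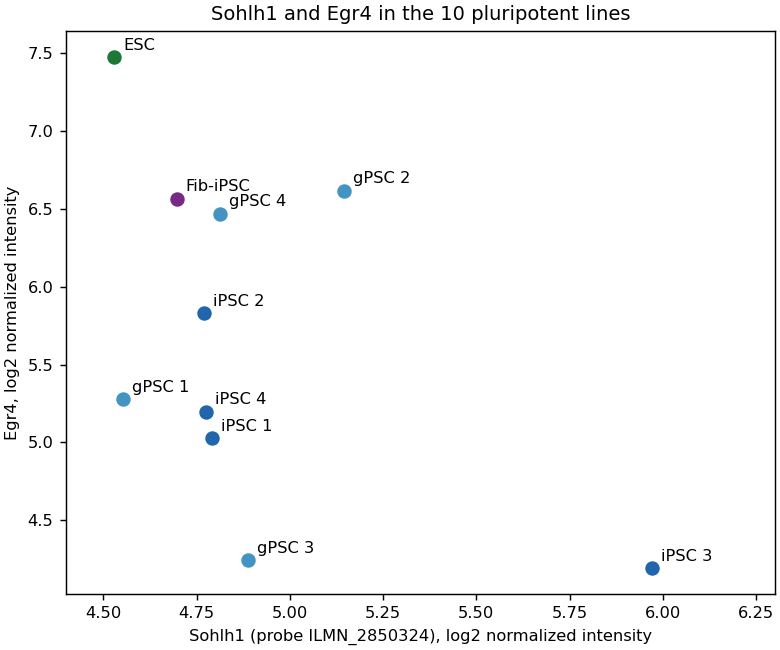
Egr4 (y axis) against Sohlh1 (x axis, probe ILMN_2850324), both as log2 normalized intensity of the line mean, in the 10 pluripotent lines. iPSC 3 lies apart at 5.97 for Sohlh1 and 4.20 for Egr4, gPSC 3 shares its low Egr4, and ESC has the highest Egr4 at 7.47.

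Some germ cell regulators, picked after their values had been seen, were also high in iPSC 3 and less so in gPSC 3, and others were low in iPSC 3. Id4 (5.40), Etv5 (7.02) and Lin28a (6.77) were lower in iPSC 3 than in any other iPSC line. Taf7l, a testis TFIID subunit, stood at 10.002 in iPSC 3 and 7.47 in gPSC 3, against 5.69 to 5.997 in the other iPSC lines and 5.31 to 6.63 in the other gPSC lines. Taf9b, a TFIID subunit paralogue, stood at 8.80 and 7.38 in these lines. Stra8, a gene of meiotic entry, was at 6.75 in iPSC 3 and 5.61 in gPSC 3. It was also detected in the other iPSC lines, at 4.995 to 5.68, and undetected in the other gPSC lines. The ESC line, which has no GSC source, stood above gPSC 3 for Stra8 (6.24) and Taf9b (7.45) and below it for Taf7l (6.89). Dazl, an RNA-binding protein of germ cells, was at 10.8 in iPSC 3 and 9.94 in gPSC 3, and at 7.40 in ESC. Egr1 and Egr2, the relatives of Egr4, were lowest in the same pair of lines, Egr1 at 11.98 and 11.66 and Egr2 at 5.98 and 6.04. The 13 fibroblast and feeder markers also averaged lowest there, 4.87 in iPSC 3 with 7 detected and 5.35 in gPSC 3 with 8 detected, whereas means of 5.73 to 8.33 with 9 to 12 detected were found in the remaining iPSC and gPSC lines. gPSC 1, with the highest marker mean, had Egr4 at 5.28, and gPSC 2, with a mean of 5.98, had Egr4 at 6.62. The part of these marker differences in the Egr4 and Sohlh1 values was not tested.

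Egr1, Egr2 and the co-repressors Nab1 and Nab2 were lower along with Egr4, by smaller amounts, and Egr3 was not. Differences of these and the following genes are given on the log2 scale as iPSC or gPSC minus GSC, in that order, with their SE. Some genes stand in more than 1 list, and where a gene was undetected in the pluripotent lines, as Neurog3 and Dmrtc1b were in iPSC and gPSC, the fitted difference does not measure the size of the fall. Egr1, the widely expressed immediate-early member, was lower, at -1.42 ± 0.21 in iPSC and -1.58 ± 0.21 in gPSC. Egr2 was lower, at -1.99 ± 0.37 and -1.90 ± 0.37. The co-repressors Nab1 and Nab2, which bind EGR proteins and limit their activity, were lower, at -2.51 ± 0.22 and -2.14 ± 0.13 in iPSC and at -2.03 ± 0.22 and -2.21 ± 0.13 in gPSC. Thus 4 of the 5 tested members other than Egr4 were called lower in each comparison. Of all tested genes, 11.7% were called lower in iPSC and 11.5% in gPSC. The median difference of the 5 genes was -1.99 in iPSC and -1.90 in gPSC, against -0.02 and 0.01 over all genes. Egr3 was near the floor in all lines, between 4.50 and 4.83. In the fibroblast line Egr2 was at 9.50, with the GSC lines at 8.47 and 8.87, and Nab1 was at 7.98, while Egr1, at 12.33, lay within the range of the pluripotent lines.

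Of the relatives of Dmrt1, 5 of 8 listed genes were tested, and 2 were called lower in iPSC and in gPSC. Among all tested genes the shares called lower were 11.7% and 11.5%. Dmrt3, another DM-domain factor, was lower, at -1.97 ± 0.35 and -2.28 ± 0.35, and Dmrtc1b at -1.07 ± 0.10 and -1.08 ± 0.10. Dmrtc1b was detected in the GSC lines only, passed the detection filter through them, and was under 2-fold lower without GSC 2 (-0.95 and -0.96), on a arrays, and with values raised to the floor. Dmrtc2, which acts in meiotic germ cells, was spread over the pluripotent lines, from 4.83 in gPSC 1 to 7.39 in iPSC 3, with GSC lines at 7.45 and 6.85, and its differences of -0.83 and -1.60 were not called. The gPSC difference was called with the line as a random block (adjusted p = 0.00199), with the array letter or the line number as a block (0.00215 and 0.026), on b arrays (0.0493) and without iPSC 2, iPSC 3 or gPSC 3 (0.0344 to 0.0394). The fits with the random line block and with the array letter take technical arrays as rows and add no line.

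Other regulators of spermatogonia split by direction. Of 21 listed genes 19 were tested. In iPSC 10 were called lower and 3 higher, and in gPSC 11 lower and 3 higher. Of all tested genes, 11.7% were called lower and 11.1% higher in iPSC, and 11.5% and 10.2% in gPSC. The median difference of the listed genes was -1.18 in both, against -0.02 and 0.01 over all genes. Of the 19 tested, 2 (Nanos2 and Sox3) were detected on both arrays of a line only in GSC, as were 375 of the 10660 tested genes (3.52%). Nanos2 and Sox3 thus passed the detection filter through the GSC lines alone, as Dmrt1 did. Nanos2, an RNA-binding protein that keeps male germ cells undifferentiated, was lower, at -3.63 ± 0.11 and -3.66 ± 0.11. It was detected on 2 of 8 iPSC arrays and 1 of 8 gPSC arrays, at levels near the floor. Nanos3 was lower, at -3.95 ± 0.31 and -3.73 ± 0.31, Rhox10, a homeobox gene of spermatogonia, at -4.53 ± 0.23 and -4.43 ± 0.23, and Neurog3, a helix-loop-helix factor of early differentiation, at -3.43 ± 0.30 and -3.42 ± 0.30. Foxo1, a forkhead factor of stem cell maintenance, stayed detected in all lines and was lower, at -1.86 ± 0.26 and -1.93 ± 0.26.

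The 3 regulators that were higher are known from pluripotent cells too. Utf1, a chromatin-bound factor of pluripotent cells, was higher by 4.69 ± 0.17 in iPSC and 4.93 ± 0.17 in gPSC, Id2, an inhibitor of helix-loop-helix factors, by 3.62 ± 0.34 and 3.08 ± 0.34, and Etv5, an ETS factor that GDNF induces in spermatogonial stem cells, by 2.02 ± 0.41 and 2.14 ± 0.41. Sall4, a zinc finger factor of both germline and pluripotent cells, was between 11.36 and 12.36 in all GSC, iPSC and gPSC lines and was not called (0.55 ± 0.24 and 0.41 ± 0.24). Id4, a marker of spermatogonial stem cells, was called in gPSC only (-1.18 ± 0.40, adjusted p = 0.0384, against -0.89 ± 0.40 in iPSC), and that call ended when GSC 1 or GSC 2 was left out (adjusted p = 0.133 and 0.177) and also without iPSC 1, gPSC 1, gPSC 2 or gPSC 4. The difference between iPSC and gPSC was not called for Id4 (0.29 ± 0.32). Pou3f1 (-0.92 in iPSC, -0.22 in gPSC) and Lin28a (-0.51 and -0.05) were not called either. Sohlh2, the partner of Sohlh1, fell short of the threshold with differences of -1.44 ± 0.58 in iPSC (adjusted p = 0.0734) and -1.38 ± 0.58 in gPSC (adjusted p = 0.0858). Sohlh2 was called in both with the line as a random block (adjusted p = 0.00666 and 0.00921) and with the array letter as a block (0.00599 and 0.00836). Both fits take technical arrays as rows and add no line. On line means Sohlh2 was called in both with the line number as a block (0.0126 and 0.0146). It was also called in iPSC on b arrays (0.0367), without iPSC 3 (0.0475) and without gPSC 1 (0.0362), and in gPSC without gPSC 3 (0.0361). It stood at 6.87 and 7.14 in the GSC lines, and at 6.31, 6.44, 6.55 and 6.50 in iPSC 3, gPSC 2, gPSC 3 and ESC.

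Reported targets and partners of the factors were mixed. Of 14 listed genes 11 were tested, and 4 were called lower and 1 higher in each comparison, with medians of -0.79 and -0.80. Of all tested genes, 11.7% were called lower and 11.1% higher in iPSC, and 11.5% and 10.2% in gPSC. Their medians were -0.02 and 0.01. Stra8 was lower, at -1.81 ± 0.50 in iPSC and -2.79 ± 0.50 in gPSC, Lhx8, a LIM homeobox gene that Sohlh1 is known to control in the ovary, at -1.61 ± 0.10 and -1.50 ± 0.10, and Ccnd2, the cyclin D2 gene, at -3.65 ± 0.97 and -2.94 ± 0.97. Leaving out GSC 1 ended the call of Stra8 in iPSC (-1.42, adjusted p = 0.149), and leaving out GSC 2 ended that of Ccnd2 in both (adjusted p = 0.108 and 0.212). The Ccnd2 call in gPSC also ended without GSC 1, iPSC 1, iPSC 4, gPSC 2, gPSC 3 or gPSC 4 (adjusted p between 0.0506 and 0.0911). Neurog3 is the other gene called lower, and Sall1 was higher by 1.16 ± 0.20 in iPSC and 1.54 ± 0.20 in gPSC, although its iPSC difference fell under 2-fold without GSC 2 (0.99).

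Among the TFIID subunits, the complex to which Taf4b belongs, 13 of 17 listed genes were tested and 4 were called lower in each comparison. Their medians were -0.54 in iPSC and -0.63 in gPSC. Of all tested genes, 11.7% were called lower in iPSC and 11.5% in gPSC, with medians of -0.02 and 0.01. Taf7l was lower, at -4.97 ± 1.12 and -5.44 ± 1.12 and Taf9b at -4.43 ± 0.74 and -4.93 ± 0.74. Taf5 was lower, at -1.14 ± 0.14 and -1.25 ± 0.14, and Taf11 at -1.41 ± 0.14 and -1.17 ± 0.14. Of the relatives of Zbtb16, zinc finger genes with a BTB domain, 9 of 11 listed were tested, with a median of -0.30 in both comparisons. Against the same shares of all genes, 3 were called lower in each comparison. They were Zbtb33 (-2.41 ± 0.18 and -2.16 ± 0.18), Bcl6b, a gene of spermatogonial stem cells (-1.18 ± 0.17 and -1.10 ± 0.17), and Bcl6 (-1.42 ± 0.44 and -1.49 ± 0.44). Bcl6b in gPSC was under 2-fold lower without GSC 2 (-0.98), on b arrays (-0.95) and with values raised to the floor (-0.95). With quantile normalized values and no background correction, the differences of Nab2, Dmrt3, Dmrtc1b, Taf5, Taf11, Lhx8, Bcl6, Bcl6b, Lhx1 and Sall1 were under 2-fold in both comparisons, as was that of Stra8 in iPSC. The Bcl6 calls ended without GSC 1 (adjusted p = 0.282 and 0.249), without iPSC 2 or iPSC 3 in iPSC (0.0545 and 0.0539) and without gPSC 4 in gPSC (0.0521).

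**Figure D3:**
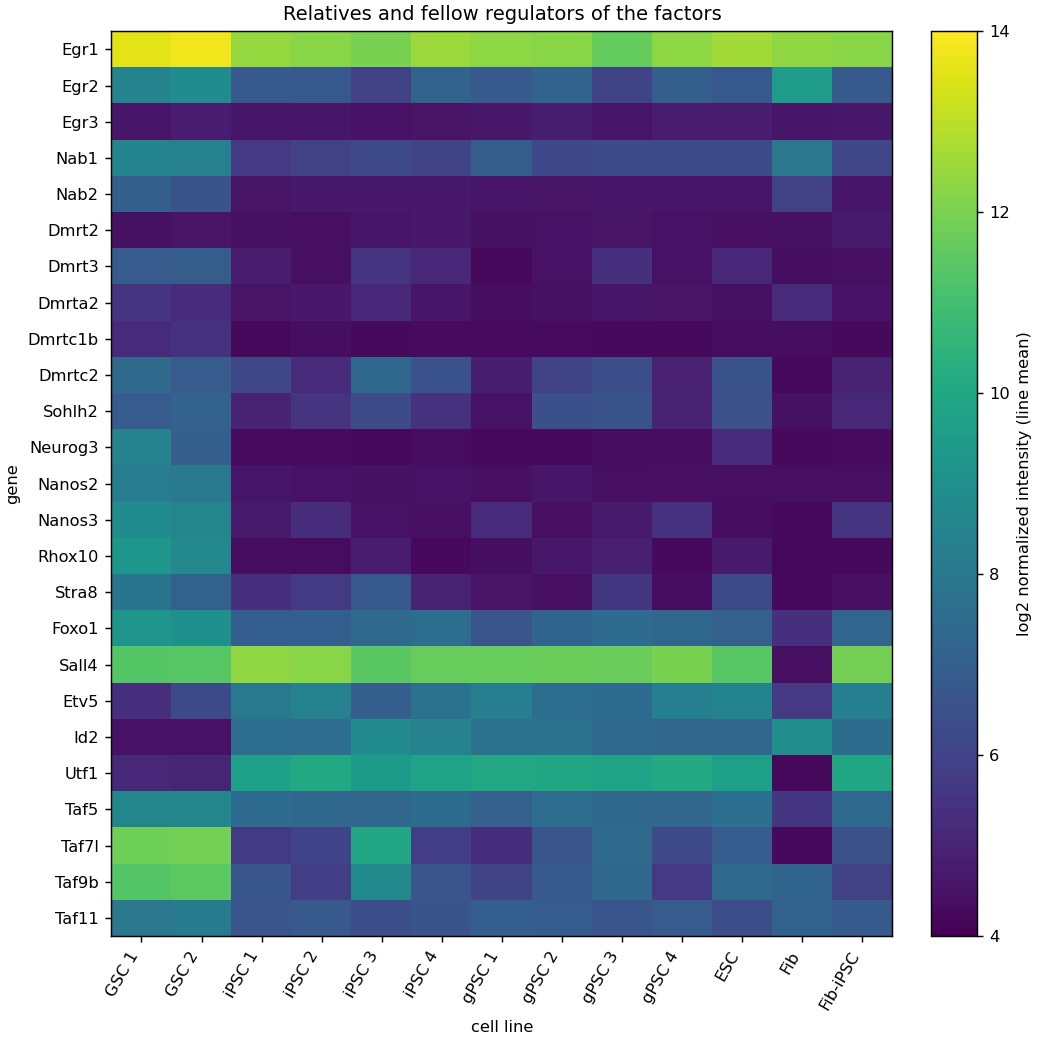
Log2 normalized intensity of the line mean (colour, from 4 to 14) of 25 relatives and fellow regulators of the factors (y axis) in the 13 cell lines (x axis). Nanos2, Rhox10 and Neurog3 are high in the GSC lines, Utf1 and Id2 are low there, and Taf7l and Taf9b are raised in iPSC 3. Colours compare lines within a gene and not genes with each other.

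The genes whose pattern came closest to each factor, by Pearson's r over the 13 line means, mostly shared the step between the GSC lines and the rest. For Sohlh1 they were Nxf2 (r = 0.992), Zfp385b (0.992) and Usp9y (0.992), for Egr4 Cxxc1 (0.984), Cadps2 (0.983) and Ercc3 (0.983), and for Dmrt1 Alox12e (0.999), Pi16 (0.998) and Nxf2 (0.997). Such values were common, since 635, 442 and 668 of the other 10659 genes had an r above 0.9 with Sohlh1, Egr4 and Dmrt1. Within the 8 iPSC and gPSC lines the order of likeness changed: Htr1d (0.980), Rgs9 (0.968) and Pcnx (0.964) came closest to Sohlh1, and Ctdp1 (0.990), Tsr3 (0.984) and Srf, the serum response factor (0.981), came closest to Egr4. For Dmrt1, undetected in all 8 lines, Cdkn1b (0.987), Tmem205 (0.983) and Pyy (0.982) came closest. All points come from 1 platform and a few lines, with iPSC 3 at the end of the Sohlh1 range, and r is given as a description.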

How the data were processed

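The deposited table holds a probe intensity and a detection p-value for each of 26 arrays, per the file headers. BeadStudio 3.2 and lumi are named in the submitters' processing notes, with no role given. The deposited series matrix holds the authors' log2 values, which its columns show to be quantile normalized, and their background treatment is not given in the sources used here.

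Intensities were corrected and normalized with neqc (limma 3.58.1, R 4.3.3, offset 16), taking negative controls from the detection p-values, and the 2 arrays of each line were averaged. Kept were probes detected (p under 0.05) on the a and the b array of 1 or more lines (15917 of 25697), and the probe with the highest mean represented each of 10660 genes. In the platform annotation 23978 probes carry 1 gene symbol and 1719 none. limma fitted 1 mean per group over the 13 lines, with Benjamini-Hochberg adjustment over all tested genes, and was tested on simulated data. The labels call only the GSC, iPSC and gPSC lines independent, so p-values reflect only how far lines differ.

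The members and gene lists were chosen with earlier results of these data known. Every member probe was named, further genes came from the lists and, for each member, from the 3 highest r. Which list genes are given with values was decided after their values had been seen. Alternatives were another normalization, the authors' values, other filters, single arrays per line, array and line blocks, a raised floor and leaving out each line. iPSC and gPSC lines of the same number deviated from their group means with correlations of -0.07, -0.07, 0.68 and -0.07, so numbers were not taken to pair lines.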

Additional observations from a re-analysis of the deposited data

Results flagged for a closer look

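Of 74 groups of 4 lines examined for an outlying line by the gap to its nearest neighbour over the range, 10 held one, and chance alone gives about 1 in 20. The genes were picked after their values had been seen and the groups share lines, so the 10 cannot be read against that rate. Sohlh1 was high in iPSC 3 on both probes, at 5.82 on ILMN_1242183 against 4.57 to 4.64 in the other iPSC lines and at 5.97 on ILMN_2850324 against 4.77 to 4.79. The same line was highest for Taf7l (10.002 against 5.69 to 5.997), Rhox10 (4.79 against 4.27 to 4.35) and Lhx8 (4.74 against 4.58 to 4.61). gPSC 3 was high for Stra8 (5.61 against 4.34 to 4.54) and low for Egr1 (11.7 against 12.2 to 12.3). Nanos2 was highest in gPSC 2 (4.60 against 4.403 to 4.42), Lhx1 in gPSC 4 (5.05 against 4.38 to 4.43), and Nab2 was lowest in iPSC 1 (4.52 against 4.67 to 4.68). The Nanos2, Nab2, Rhox10 and Lhx8 values lie at or near the detection floor.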

How the results depend on the processing

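The falls of Sohlh1 and Egr4 from GSC to iPSC and gPSC were called in all 22 alternative fits of each. Of these fits, 12 had other settings and 10 left out a line. In iPSC the size ranged over the settings from -9.23 (the authors' values) to -6.02 (quantile values without correction) for Egr4. For Sohlh1 it ranged from -7.12 to -4.17. Dmrt1 was also called in all of these fits. It was undetected outside the GSC lines, which alone brought it past the detection filter, so these calls add no support. Its fitted difference in iPSC, from -4.29 to -1.04, does not measure the size of the fall. In iPSC against ESC, 1 member (Egr4) was called with 26 arrays and line as a random block, and 1 with the array letter as a replicate block (adjusted p = 0.0438). Both fits take technical arrays as rows and add no line. Differences near 0 changed sign: Sohlh1 in iPSC against gPSC was -0.071 (without iPSC 3) to 0.33 (without iPSC 2) over the fits without a line, and Dmrt1 was -0.067 there with values raised to the floor, 0.0033 in iPSC against ESC on b arrays, 0.047 in gPSC against ESC with raised values, and 0.036 for germline-derived against other pluripotent lines without ESC. In gPSC against GSC, Egr3 was -0.08 on b arrays and from -0.053 to 0.12 over the fits without a line (below 0 without GSC 1, gPSC 2 or gPSC 4), Pou3f1 was 0.062 with line number as a replicate block and -0.60 (without gPSC 4) to 0.31 (without gPSC 3) over the fits without a line, and Lin28a was 0.0043 on quantile values, 0.047 on a arrays, 0.39 with the line block and -0.34 (without gPSC 4) to 0.44 (without gPSC 3) over the fits without a line, above 0 also without GSC 1 (0.047).

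Counts of all called genes under quantile values were 1135 (from 2432) in iPSC and 1061 (from 2306) in gPSC against GSC, 1052 (from 2187) in GSC against ESC, 1892 (from 3381) against Fib, 10 (from 24) in iPSC and 9 (from 26) in gPSC against ESC, and 1 (from 4) for germline-derived lines. In iPSC against gPSC the count of 0 became 1 with the authors' values, and 3 each on a arrays, with the random line block and with the array letter as a replicate block. These 2 blocked fits take technical arrays as rows and add no line. With them the count was 60 and 53 in iPSC against ESC, 61 and 57 in gPSC against ESC, and 10 and 11 for germline-derived lines. It was 17 in gPSC against ESC with the authors' values, 8 to 23 in iPSC against ESC over the fits without a line (8 without iPSC 1), and for germline-derived lines 8 with every probe, 0 without ESC and 27 without Fib-iPSC. The line number as a replicate block gave 2422, 2362 and 0 genes in the 3 comparisons it allows, an Egr4 difference of -7.46 in iPSC, and changed no call of a member. The cause of these changes was not tested. Values near the floor and groups of 1 line limit what the array can order.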
